A study of Arabidopsis thaliana with 27 samples.

Results

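The transcriptome of Columbia wild-type Arabidopsis seedlings was compared between 22 °C and 16 °C in 6 libraries, 3 at each temperature, chosen by their labels from 27 libraries in all. The other libraries were wild type at 29 °C and lines labelled ELF3S364P (here the S364P line, a natural-variation allele per the protocol, named for serine 364 of EARLY FLOWERING 3) and ELF3 T-insert (here the insertion line), each in triplicate at 16, 22 and 29 °C. All libraries were made from whole seedlings, with no transgene, drug or other treatment named, and wild type carried neither ELF3 allele. No source used here gives the age of the seedlings or says that replicates were separate plantings, and p-values then measure the spread between these libraries, which may be technical. The protocol lists sampling at Zeitgeber time 8 with 16 °C, at 16 with 22 °C and at 24 with 29 °C, in hours after lights on. Read literally, every difference below is a difference of temperature and of time of day at once, and the effects of these cannot be told apart. The same holds for the 29 °C levels set beside some genes, which have their own listed hour.

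As background, plants read ambient temperature without a dedicated organ. In Arabidopsis, warmth lowers the activity of the red-light receptor phytochrome B and of the evening complex of ELF3, ELF4 and LUX, both of which hold back PHYTOCHROME INTERACTING FACTOR 4 (PIF4), and PIF4 then drives auxin-dependent elongation. Coolness favours CBF transcription factors, protective COR proteins and anthocyanin pigment. The circadian clock cuts across these pathways: CCA1 and LHY transcripts peak near dawn, the PRR9, PRR7, PRR5 and TOC1 transcripts follow through the day, and GI, LUX and ELF4 peak towards evening.

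Expression was deposited as TPM, a length-adjusted transcript abundance that holds each library to the same total. Read depth cannot be recovered from it, so values carry no interval for counting error. Between 23538 and 23716 genes were above 0 in each of the 6 libraries, and 19462 to 19814 reached 1 TPM. Replicates correlated across genes at r = 0.984 to 0.987 in 6 pairs, and libraries of different temperatures at 0.963 to 0.969 in 9 pairs, on the log2(TPM + 1) scale. Differences below are log2 differences of TPM + 1, 22 °C minus 16 °C, with their standard error (SE). They understate the change of genes near or under 1 TPM. Adjusted p-values are two-sided, from limma with Benjamini-Hochberg adjustment over all tested genes, and "rose" and "fell" are kept for genes with an adjusted p under 0.05. In bulk seedlings, fewer cells of a type and less RNA per cell cannot be told apart.

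The change from 16 to 22 °C was broad and mostly small. Of 21396 tested genes, 8172 (38.2%) were called, 5663 (26.5%) higher and 2509 (11.7%) lower at 22 °C. These shares are the background for the list counts below. A difference of at least 1 log2 was reached by 622 called genes (2.91%), of which 391 (1.83%) were higher and 231 (1.08%) lower. The median of all tested genes was 0.09, with quartiles at -0.12 and 0.31. The split of calls depended on the scaling: 69.3% of called genes were higher in TPM, against 50.7% (4072 higher, 3962 lower) after median-of-ratios scaling and 49.8% (3922 higher, 3950 lower) after quantile normalization, which shifted the median by -0.087 and -0.094. Both alternatives put the median near 0 by construction, so their near-even split does not say which scaling is right. No gene was called in opposite directions by any of these, and all 2509 falls were also called after median-of-ratios scaling. Library values did not overlap between the temperatures for 54.4% of tested genes, so that separation alone is common in these data.

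**Figure D1:**
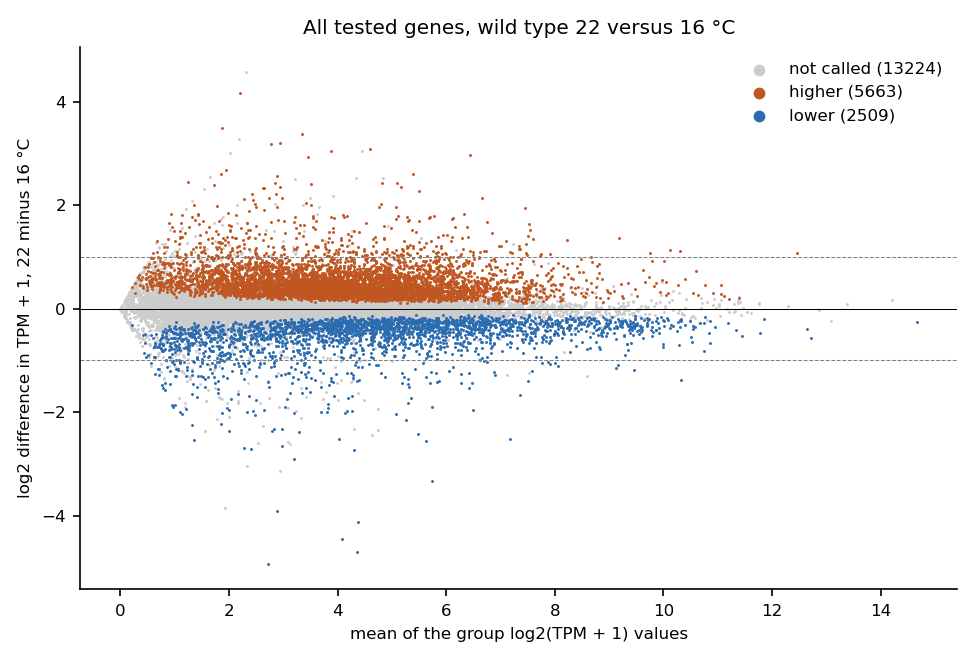
Each point is 1 of 21396 tested genes; the x axis is the mean of the 2 group levels as log2(TPM + 1) and the y axis the log2 difference of TPM + 1 between wild type at 22 and 16 °C, with dashed lines at 1 and -1. The 5663 higher and 2509 lower genes lie mostly inside the dashed lines, and the falls reach farther from 0 than the rises among well expressed genes.

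The dawn genes were high at both temperatures. CCA1, a MYB-like repressor of evening genes, was at 258, 271 and 282 TPM in the 16 °C replicates and at 222, 221 and 228 TPM in the 22 °C replicates. LHY, its close relative, was at 314, 305 and 321 TPM at 16 °C and at 465, 447 and 471 TPM at 22 °C. The pair thus moved apart, with CCA1 lower and LHY higher at 22 °C and no overlap between libraries for either. LHY rose by 0.56 ± 0.112 (SE, n = 3 and 3, limma adjusted p = 4.71e-04). CCA1 fell by 0.27 (adjusted p = 0.0347), but this call was lost after quantile normalization (-0.22, adjusted p = 0.1) and without any 1 of 5 libraries, every one except 16 °C replicate 1 (-0.24 to -0.28, adjusted p 0.061 to 0.109).

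Some activators of the same arm also rose. RVE4, a MYB-like activator of evening genes, was at 106, 104 and 112 TPM at 16 °C and at 247, 217 and 261 TPM at 22 °C, and rose by 1.16 ± 0.084 (limma adjusted p = 7.17e-10). Its relative RVE8 went from a mean of 47.3 to 79.6 TPM (0.74 ± 0.135, adjusted p = 1.72e-04). LNK1, a coactivator that works with these RVE proteins, went from 2.79 to 5.83 TPM (0.86 ± 0.102, adjusted p = 8.9e-07). RVE2, another MYB-like family member, went from 229 to 248 TPM at 16 °C to 339 to 409 TPM at 22 °C (0.67 ± 0.122, adjusted p = 1.49e-04). Of 14 dawn and morning genes tested, 7 rose (50.0%), 3 fell (21.4%) and 4 were not called, with a median difference of 0.39. LNK2 and RVE7 were the other risers. The related RVE6 and LNK4 fell, by 0.27 (adjusted p = 0.0238) and 0.38 (adjusted p = 7.49e-04) on the log2 scale, and RVE1 and LNK3 were not called. The call of RVE6 was lost without 16 °C replicate 2, 22 °C replicate 1 or 22 °C replicate 2 (adjusted p 0.0748 to 0.105). That of LNK2 was lost after median-of-ratios scaling (0.41, adjusted p = 0.0579) and without 16 °C replicate 1 (adjusted p = 0.0527).

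The day-phase regulators were at low levels at both temperatures. PRR9 stood at 0.63, 0.60 and 0.77 TPM at 16 °C and at 0.78, 0.72 and 0.86 TPM at 22 °C, and PRR7 between 0.80 and 1.98 TPM in all 6 libraries. Both encode repressors of CCA1 and LHY, and neither was called (limma adjusted p = 0.404 and 0.0751). PRR7 was called at 0.40 (adjusted p = 0.0193) without 22 °C replicate 2 and at 0.35 (adjusted p = 0.0487) without 16 °C replicate 3. PRR5, which represses the same pair later in the day, was at 1.95, 3.07 and 3.22 TPM at 16 °C and at 1.53, 0.96 and 1.42 TPM at 22 °C. All 22 °C values lay below all 16 °C values, and PRR5 fell by 0.69 (adjusted p = 7.30e-04). TOC1, the evening repressor, was near 16 TPM at both temperatures: its mean was 16.5 ± 0.85 (SD) at 16 °C and 15.2 ± 1.56 at 22 °C, and the difference of -0.11 ± 0.071 (adjusted p = 0.255) was called only after median-of-ratios scaling (-0.21, adjusted p = 0.0481) and quantile normalization (-0.23, adjusted p = 0.0139). GI, a scaffold of photoperiod signalling, was nearly absent, at 0.08, 0.09 and 0.08 TPM against 0.57, 0.29 and 0.16 TPM. Its difference of 0.29 ± 0.12 was not called (adjusted p = 0.0579), although its libraries did not overlap. GI was called at 1.16 (adjusted p = 1.57e-04) with a pseudocount of 0.1, at 0.29 (adjusted p = 0.028) after median-of-ratios scaling and at 0.39 (adjusted p = 0.0237) without 22 °C replicate 3. Beside the listed hours, the levels at both temperatures paired CCA1 and LHY above 221 TPM with GI, PRR9 and PRR7 below 2 TPM.

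The 3 evening complex genes went different ways. ELF3, the scaffold, was at 24.96, 27.5 and 28.9 TPM at 16 °C and at 23.2, 18.1 and 20.0 TPM at 22 °C, and fell by 0.40 (SE 0.078, limma adjusted p = 3.85e-04). LUX, the DNA-binding member, was at 4.92, 5.33 and 5.18 TPM at 16 °C and at 9.33, 7.16 and 8.07 TPM at 22 °C. It rose by 0.57 ± 0.089 (adjusted p = 2.48e-05). The LUX paralogue BOA also rose, from 1.67 to 3.40 TPM (0.72 ± 0.1, adjusted p = 6.25e-06). ELF4, which stabilises ELF3 in the complex, overlapped between temperatures, with 8.65, 7.09 and 8.22 TPM against 8.29, 3.55 and 8.05 TPM. Its difference of -0.30 ± 0.193 was not called (adjusted p = 0.233) and turned to 0.03 without 22 °C replicate 2, the low library.

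Among 14 afternoon and evening genes, 6 rose (42.9%), 2 fell (14.3%) and 6 were not called, with a median of 0.11. The risers beside LUX and BOA were CHE, a TCP factor that represses CCA1, at a mean of 20.1 against 31.1 TPM (0.61 ± 0.066, limma adjusted p = 2.9e-07), the light-sensing F-box genes ZTL and LKP2, and COR27. The call of LKP2 was lost after either other scaling (adjusted p = 0.147 and 0.194) and without any 1 of 5 libraries, every one except 16 °C replicate 1 (adjusted p 0.0559 to 0.114). The third F-box gene, FKF1, was at 0.26 TPM or less in every library and was not called. The plot of clock genes by library shows the separation of LNK1, RVE4 and LUX and the overlap of ELF4.

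**Figure D2:**
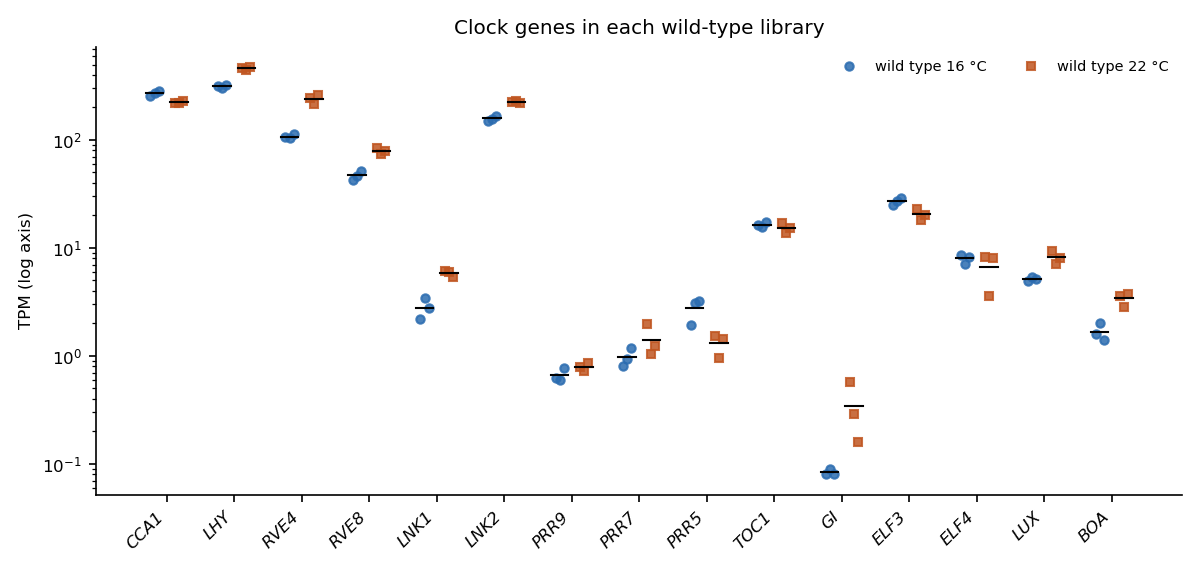
Points are single wild-type libraries (circles, 16 °C; squares, 22 °C), bars are means of 3, and the y axis is TPM on a log scale. CCA1 and LHY lie between 221 and 471 TPM at both temperatures, while PRR9, PRR7 and GI stay below 2 TPM.

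Warm-growth regulators were higher at 22 °C, led by PIF4. PIF4, the basic helix-loop-helix factor of warmth-induced elongation, was at 0.81, 0.80 and 0.75 TPM at 16 °C and at 3.98, 3.97 and 4.14 TPM at 22 °C. The libraries stood far apart relative to their spread, and PIF4 rose by 1.49 ± 0.088 (limma adjusted p = 3.44e-11), to a level still below its mean of 18.8 ± 1.04 TPM at 29 °C. PIF5, its nearest relative, was at 42.7, 47.9 and 43.0 TPM at 16 °C and at 65.8, 67.5 and 70.2 TPM at 22 °C (0.60 ± 0.065, adjusted p = 2.59e-07). PIF1 and PIF3 also rose, from 14.1 to 24.5 TPM and from 4.73 to 9.20 TPM, whereas PIF7 was at 9.29 and 7.23 TPM and was not called (adjusted p = 0.0814).

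Of 33 PIF and auxin growth genes, 19 rose, none fell and 14 were not called, and the median was 0.45 against 0.09 for all tested genes. After median-of-ratios scaling 14 rose and 1 fell, and after quantile normalization 15 rose and 1 fell. Some genes known as PIF targets in shade rose: ATHB2, a homeodomain factor, from 3.79 to 7.47 TPM, its relative HAT2 from 12.7 to 21.2 TPM, and the helix-loop-helix genes HFR1 and PAR1, whose proteins hold PIFs back, from 1.87 to 3.32 and from 4.08 to 8.83 TPM. IAA29, an auxin-response repressor, was at 0.71, 0.63 and 0.53 TPM at 16 °C and at 2.44, 2.01 and 2.22 TPM at 22 °C, a rise of 0.99 ± 0.121 (limma adjusted p = 1.35e-06). The growth-promoting SAUR genes rose at low level: SAUR23 had 1.25, 0.65 and 0.83 TPM at 16 °C and 2.61, 3.07 and 3.60 TPM at 22 °C (1.11 ± 0.179, adjusted p = 4.46e-05). SAUR19 rose by 1.08 ± 0.232 (adjusted p = 8.43e-04), a call lost with a pseudocount of 5 (0.34, adjusted p = 0.12). SAUR19 to SAUR24 are near-identical neighbours, and no source used here says how reads were shared among them. The auxin synthesis genes YUC2, YUC8, YUC9 and TAA1 were not called, with differences from -0.01 to 0.22. IAA1, IAA3, IAA6 and IAA19 were not called either, nor were ATHB4, a relative of ATHB2, at 2.17 and 2.64 TPM (0.20, adjusted p = 0.214), and the sulfotransferase gene ST2A, at 2.07 and 2.58 TPM (0.22, adjusted p = 0.291).

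Enzyme genes of brassinosteroid synthesis rose in part, and of the gibberellin genes tested only GA3OX2 and GA3OX1 fell. CPD, a cytochrome P450 of brassinosteroid synthesis, was at 50.8, 50.8 and 53.6 TPM at 16 °C and at 106, 100.3 and 107 TPM at 22 °C, a rise of 1.0 ± 0.087 (limma adjusted p = 1.1e-08). BR6OX2 and BR6OX1, the last oxidases of that pathway, rose by 0.71 ± 0.093 and 0.62 ± 0.134, and DWF4 by 0.36 ± 0.109. The call of DWF4 was lost after quantile normalization (0.24, adjusted p = 0.0677) and without 16 °C replicate 1 or 22 °C replicate 1 (adjusted p = 0.0521 and 0.0937). GA3OX2, which makes active gibberellin, was at 3.20, 3.61 and 4.36 TPM at 16 °C and at 1.49, 1.06 and 0.79 TPM at 22 °C, with no overlap. It fell by 1.17 (adjusted p = 1.49e-06). Its relative GA3OX1 fell from 7.24 to 5.60 TPM, a call lost without 16 °C replicate 1 or 2 or 22 °C replicate 2 or 3 (adjusted p 0.0621 to 0.13). GA2OX8, a gibberellin-inactivating enzyme gene at 0.74 TPM or less, rose by 0.37 ± 0.133. Its call was lost with a pseudocount of 5, after quantile normalization, in a fit of the groups compared alone and without 16 °C replicate 1 or 2 or 22 °C replicate 2 or 3 (adjusted p 0.0665 to 0.176). Of 16 tested genes of both pathways, 5 rose (31.2%), 2 fell (12.5%) and 9 were not called, shares near the 26.5% and 11.7% of all tested genes. After quantile normalization 3 rose and 3 fell.

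Light-signalling genes were called at the rate of all genes: of 27 tested, 5 rose, 5 fell and 17 were not called, so that 37.0% were called against 38.2% of all tested genes. Under either other scaling 3 rose and 7 fell. PHYC, a red-light receptor, rose from 7.33 to 11.2 TPM (0.55 ± 0.062, limma adjusted p = 4.22e-07), and PHYA, CRY2 and UVR8 rose by 0.26 to 0.36, the call of PHYA being lost after either other scaling (adjusted p = 0.114 and 0.0639). PHYB was at 23.3 ± 0.299 (SD) and 26.2 ± 1.43 TPM and was not called (adjusted p = 0.0868). The larger differences were in B-box factors of light signalling. BBX29 was at 14.8, 15.4 and 19.7 TPM at 16 °C and at 2.83, 2.17 and 2.51 TPM at 22 °C, and fell by 2.33 (SE 0.163, adjusted p = 4.82e-10). BBX31 fell from 4.02 to 1.45 TPM (-1.03 ± 0.131, adjusted p = 2.25e-06) and BBX25 from 225 to 154 TPM (-0.54 ± 0.092, adjusted p = 7.87e-05).

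Flowering genes were mixed, and FT was scarce. FT, the mobile flowering signal, was at 1.03, 0.77 and 1.02 TPM at 16 °C and was listed at 0, 0.14 and 0 TPM at 22 °C. It was lower at 22 °C in every library (-0.89 ± 0.131, limma adjusted p = 1.39e-05). CO, its activator, fell from 4.05 to 3.12 TPM (-0.29 ± 0.087, adjusted p = 0.0113), a call lost without 16 °C replicate 1 (-0.22, adjusted p = 0.0803) and in a fit of the groups compared alone (adjusted p = 0.0559). SPL3, a promoter of flowering kept low by miR156 in young plants, went the other way, from 1.45, 1.04 and 1.31 TPM to 5.26, 5.77 and 6.97 TPM, a rise of 1.62 ± 0.151 (adjusted p = 2.8e-08). FLP1, another promoter, was listed at 0 in all 16 °C libraries and at 0.55, 0.25 and 0.86 TPM at 22 °C. Its call was lost without 22 °C replicate 3 (0.48, adjusted p = 0.0642) and with a pseudocount of 5 (0.15, adjusted p = 0.255). Of 8 tested promoters, 2 rose, 2 fell and 4 were not called.

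Among 17 flowering repressors, 4 rose (23.5%) and 6 fell (35.3%), against 26.5% and 11.7% of all tested genes. FLC, the repressor silenced by winter cold, was at 9.23 ± 0.3 (SD) and 8.54 ± 0.725 TPM and was not called (-0.10 ± 0.093, limma adjusted p = 0.415). The AP2-type repressors TOE1, SNZ and SMZ all fell, TOE1 from 47.2 to 31.8 TPM (-0.55 ± 0.064, adjusted p = 6.3e-07). CDF1, which represses CO and FT, fell from 25.9 to 28.2 TPM at 16 °C to 16.4 to 19.3 TPM at 22 °C (-0.58 ± 0.109, adjusted p = 2.49e-04), and the MADS-box genes FLM and MAF3 fell by 0.42 and 0.47 on the log2 scale. SVP, TEM1, CDF2 and CDF5 rose by 0.32 to 0.38. After median-of-ratios scaling 2 repressors rose and 6 fell, and after quantile normalization 2 rose and 8 fell. The calls lost among the risers under both were those of SVP (adjusted p = 0.246 and 0.278) and CDF5 (adjusted p = 0.0975 and 0.108). SVP was also lost without 16 °C replicate 1 or 2 or 22 °C replicate 2 or 3 (adjusted p 0.0712 to 0.144), and CDF5 without 16 °C replicate 2 or 22 °C replicate 1 or 3 (adjusted p 0.0604 to 0.0734).

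Genes of the COR and CBF cold list fell far: 17 of 20 tested fell, 13 of them by at least 1 log2, and the median was -1.19. The list was chosen with earlier results known, and the 339 tested genes annotated as responding to cold had 79 rises, 89 falls and a median of 0.01. COR15A, a chloroplast protein that protects membranes from freezing, was at 21.8, 30.8 and 31.0 TPM at 16 °C and at 1.12, 0.69 and 0.86 TPM at 22 °C. It fell by 3.92 (SE 0.23, limma adjusted p = 3.14e-11), and its 29 °C mean was 0.673 ± 0.144 TPM. Its paralogue COR15B fell from 4.47 to 0.15 TPM. ELIP1, an early light-induced protein that binds pigment under cold and strong light, was at 94.3, 103 and 112 TPM at 16 °C and at 2.83, 4.06 and 2.21 TPM at 22 °C. No library of either temperature came near the other group, and ELIP1 fell by 4.71 (SE 0.14, adjusted p = 1.42e-15). ELIP2 was at 156, 167 and 181 TPM and then at 15.03, 18.0 and 14.1 TPM (-3.34 ± 0.174, adjusted p = 6.99e-12). KIN2, a small cold-induced protein, was at 299, 364 and 368 TPM and then at 56.0, 56.8 and 65.3 TPM (-2.51 ± 0.167, adjusted p = 2.28e-10), and its neighbour KIN1 fell alike, from 95.3 to 106 TPM at 16 °C to 17.2 to 19.2 TPM at 22 °C.

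The dehydrins LTI30, ERD10 and COR47 fell by 1.43, 0.88 and 0.67 on the log2 scale, and the membrane proteins COR413IM1 and COR413-PM1 by 1.96 and 1.2. GRP7, an abundant RNA-binding protein tied to the clock and to cold, was at 1115, 1029 and 1044 TPM at 16 °C and at 478, 468 and 461 TPM at 22 °C (-1.18 ± 0.076, limma adjusted p = 1.47e-10). The transcription factor genes upstream were scarce: CBF2 was at 2.77, 3.60 and 3.12 TPM and then at 1.29, 1.11 and 1.78 TPM and fell by 0.80 (adjusted p = 3.1e-04), CBF1 was below 0.4 TPM throughout, and CBF3 did not pass the filter. COR27 was the only list member that rose (1.37 to 2.52 TPM, 0.58 ± 0.148, adjusted p = 0.00353), and this call was lost with a pseudocount of 5 (0.24, adjusted p = 0.112). Across the alternatives tried, 13 to 18 members of this list fell.

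Membrane lipid desaturase genes split by enzyme. FAD2, the oleate desaturase of the endoplasmic reticulum, was at 191, 187 and 187 TPM at 16 °C and at 472, 465 and 486 TPM at 22 °C. It rose by 1.33 ± 0.057 (limma adjusted p = 4.81e-13), and its 29 °C mean was 869 TPM. FAD8, a plastid omega-3 desaturase known for its activity in the cold, was at 110.1, 121 and 121 TPM and then at 46.3, 51.1 and 48.9 TPM, and fell by 1.25 (SE 0.09, adjusted p = 6.54e-10). Its close relative FAD7 lay between 209 and 223 TPM in all 6 libraries and was not called (0.03 ± 0.048, adjusted p = 0.715). ADS2, a desaturase linked to cold acclimation, fell by 0.69 (adjusted p = 4.42e-10), and FAD3 rose by 0.62 ± 0.078 (adjusted p = 2.07e-06). Of 10 desaturase genes, 4 rose (40.0%) and 3 fell (30.0%).

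Most flavonoid and anthocyanin genes fell: of 25 tested, 20 fell, 14 of them by at least 1 log2, 1 rose and 4 were not called, and the median was -1.35. CHS, chalcone synthase at the entry of the pathway, was at 252, 330.3 and 294 TPM at 16 °C and at 85.9, 96.7 and 89.0 TPM at 22 °C. It fell by 1.67 (SE 0.141, limma adjusted p = 6.93e-09). The next enzymes fell by like amounts, CHI by 1.35, F3H by 1.46 and the flavonol synthase FLS1 by 1.91. The anthocyanin branch fell as far: DFR was at 27.03, 27.2 and 25.3 TPM and then at 5.33, 6.89 and 6.64 TPM (-1.92 ± 0.139, adjusted p = 7.43e-10). TT19, the glutathione transferase needed to bring anthocyanin to the vacuole, was at 23.5, 26.3 and 22.1 TPM and then at 2.04, 3.07 and 2.0 TPM. TT19 fell farthest, by 2.90 (SE 0.152, adjusted p = 6.99e-12).

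The regulators of the pigment pathway moved in 2 directions. TT8, a helix-loop-helix activator, was at 2.75, 4.15 and 3.46 TPM and then at 0.43, 0.43 and 0.39 TPM (-1.64 ± 0.119, limma adjusted p = 7.43e-10), and the MYB activators PAP1 and MYB111 fell by 0.75 and 0.44 on the log2 scale. MYBL2, a repressor of anthocyanin synthesis, was the sole riser, from 3.03, 3.77 and 2.93 TPM to 9.56, 8.95 and 11.3 TPM (1.37 ± 0.132, adjusted p = 4.71e-08). EGL3, GL3, MYB12 and the general phenylpropanoid enzyme C4H were not called.

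**Figure D3:**
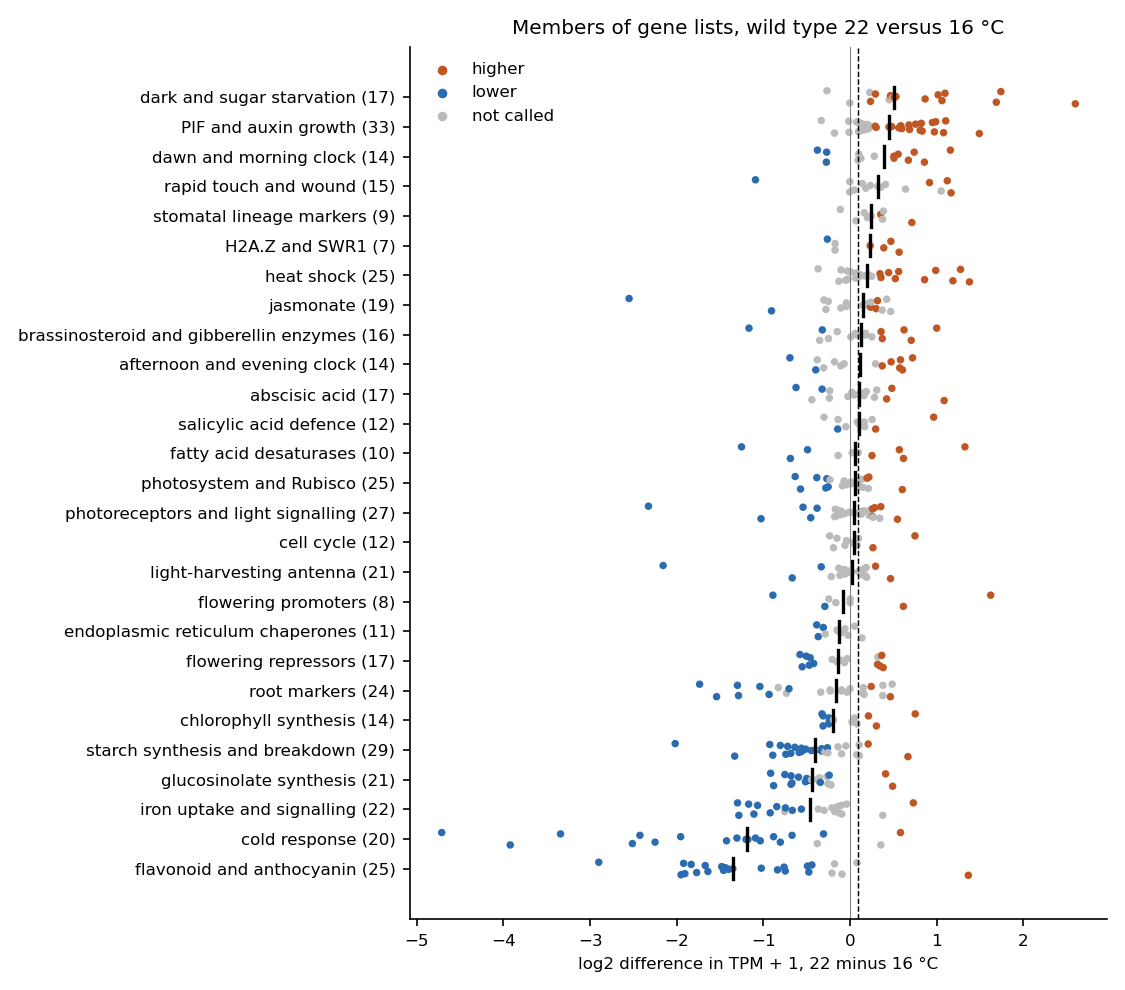
Each point is a tested member of a gene list with at least 5 tested members (number tested in brackets); the x axis is the log2 difference of TPM + 1 between wild type at 22 and 16 °C, orange points rose, blue points fell, grey points were not called, thick bars are list medians and the dashed line is the median of all tested genes (0.09). Of the lists shown, the flavonoid (-1.35) and cold (-1.19) lists have the lowest medians and the dark and sugar starvation list (0.51) the highest.

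Glucosinolate synthesis genes fell by less. Of 21 tested, 12 fell (57.1%) and 2 rose (9.52%), none by 1 log2, with a median of -0.44. Under either other scaling 17 fell. FMOGS-OX1, a side-chain modifying enzyme, fell from 11.5 to 5.65 TPM (-0.92 ± 0.132, limma adjusted p = 1.09e-05), and the methionine chain-elongation genes IPMI2 and BCAT4 fell by 0.88 and 0.75 on the log2 scale. The risers were CYP79B3 of the indole branch and GGP1, which acts on conjugates of both branches. The call of GGP1 was lost without 16 °C replicate 1 or 22 °C replicate 1 (adjusted p = 0.0572 and 0.054). MAM3, another elongation gene, fell from 54.0 to 33.5 TPM, but its call was lost without 16 °C replicate 2, 22 °C replicate 2 or 22 °C replicate 3 (-0.61 to -0.65, adjusted p 0.051 to 0.0597).

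Many transcripts of starch synthesis and of starch breakdown fell. Of 29 tested genes, 18 fell (62.1%), 2 rose (6.9%) and 9 were not called, with a median of -0.40. AMY3, the chloroplast alpha-amylase, was at 15.5, 18.5 and 18.4 TPM at 16 °C and at 4.0, 3.34 and 3.32 TPM at 22 °C, and fell by 2.02 (SE 0.097, limma adjusted p = 1.96e-12). The debranching enzyme gene ISA3 fell from 17.2 to 6.21 TPM (-1.33 ± 0.091, adjusted p = 3.4e-10), and the glucan phosphatase gene SEX4 from 21.9 to 11.1 TPM (-0.93 ± 0.093, adjusted p = 7.99e-08). On the synthesis side SS4, a starch synthase that starts granules, fell from 38.3 to 20.2 TPM (-0.89 ± 0.076, adjusted p = 8.38e-09). The ADP-glucose pyrophosphorylase subunit genes APL1 and APS1 fell by 0.64 and 0.56 on the log2 scale. BAM4, a regulator of starch breakdown, and ISA1 rose, by 0.67 ± 0.074 and 0.21 ± 0.065. The call of ISA1 was lost after median-of-ratios scaling (0.11, adjusted p = 0.12), after quantile normalization (0.08, adjusted p = 0.263) and without 16 °C replicate 1 (adjusted p = 0.0791). Under both scalings 21 of the list fell and 1 rose.

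Genes known to be induced by darkness and sugar shortage rose. Of 17, 12 rose (70.6%), 6 by at least 1 log2, none fell, and the median was 0.51. DIN1, a senescence- and dark-induced gene, was at 23.5, 9.70 and 15.9 TPM at 16 °C and at 92.3, 96.2 and 108 TPM at 22 °C. It rose by 2.60 ± 0.241 (limma adjusted p = 2.78e-08) and stood at 557 ± 133 (SD) TPM at 29 °C. DRM1, a dormancy-associated gene, was at 41.7, 35.2 and 32.4 TPM and then at 154, 103 and 119 TPM (1.74 ± 0.171, adjusted p = 5.81e-08). DIN6, the asparagine synthetase gene used as a marker of low sugar, was at 5.11, 3.65 and 3.62 TPM and then at 12.1, 16.4 and 18.4 TPM (1.69 ± 0.279, adjusted p = 5.52e-05). DIN10, a raffinose synthase-like gene, rose by 1.1 ± 0.146, and AKINBETA1, which encodes a subunit of the SnRK1 energy kinase, from 34.3 to 70.4 TPM. After either other scaling 10 of the 17 rose and 1 fell. The counts of this list, like those of the clock, are of genes known to follow the time of day, and the part of the listed hours in them cannot be told apart from temperature.

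**Figure D4:**
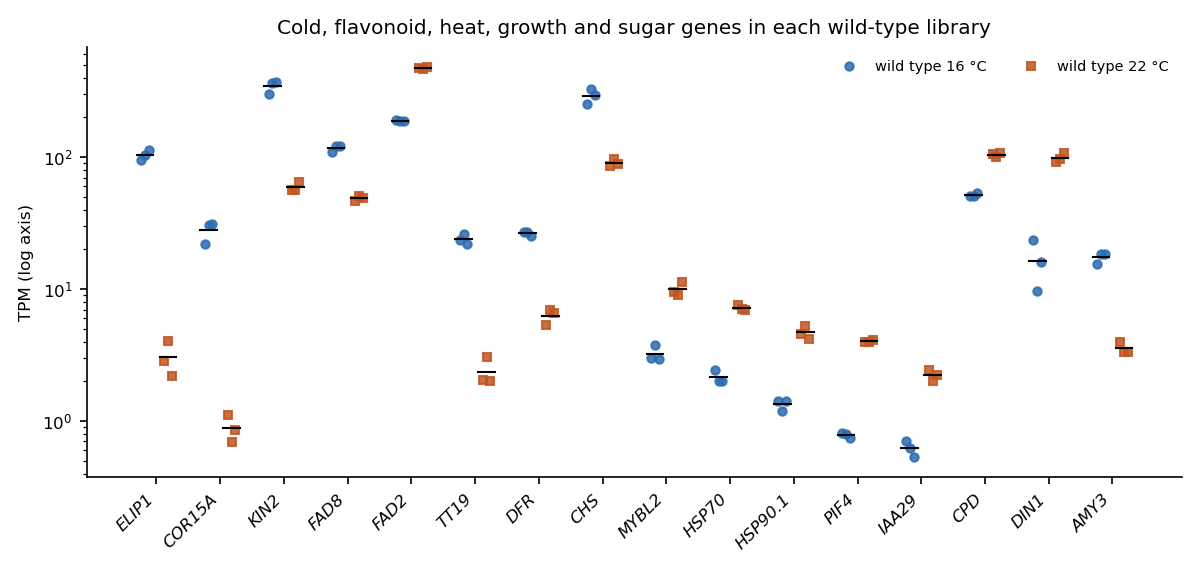
Points are single wild-type libraries (circles, 16 °C; squares, 22 °C), bars are means of 3, and the y axis is TPM on a log scale. For each of the 16 genes shown the libraries of the temperatures do not overlap: cold genes, FAD8, TT19, DFR, CHS and AMY3 are lower at 22 °C and the other 8 genes higher.

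Photosynthesis genes, the most abundant transcripts, were called at rates that differed by list, against 38.2% of all tested genes. The 163 tested genes annotated to photosynthesis had 21 rises (12.9%) and 47 falls (28.8%), against 26.5% and 11.7% of all tested genes. Of 21 antenna genes 2 rose, 3 fell and 16 were not called (23.8% called). After quantile normalization 7 rose and 4 fell, and after median-of-ratios scaling 1 rose and 3 fell. LHCB4.3, a minor antenna gene of photosystem II, was apart from the rest, at 72.5, 79.2 and 88.0 TPM at 16 °C and at 17.0, 18.4 and 16.0 TPM at 22 °C (-2.16 ± 0.124, limma adjusted p = 2.39e-11). Its paralogue LHCB4.2 rose, from 1473 to 2039 TPM (0.47 ± 0.109, adjusted p = 0.00169), and LHCB4.1 was not called (adjusted p = 0.998). Of 25 photosystem and Rubisco genes, 3 rose and 6 fell. After quantile normalization 6 rose and 3 fell, and after median-of-ratios scaling 1 rose and 6 fell. PSBS, the sensor of photoprotective quenching, was at 1799, 1834 and 1844 TPM and then at 1111, 1260 and 1164 TPM (-0.63 ± 0.048, adjusted p = 1.65e-09). The Rubisco small subunit gene RBCS2B fell by 0.57 (SE 0.059, adjusted p = 1.21e-07), and PETE1, 1 of 2 plastocyanin genes, rose by 0.60 ± 0.068 (adjusted p = 4.49e-07). RCA, Rubisco activase, fell by 0.38 (adjusted p = 2.25e-05), a call lost after quantile normalization (-0.14, adjusted p = 0.119). The LHCB1 and RBCS genes are near-identical copies, so their single values are uncertain. Of 14 chlorophyll synthesis genes 7 fell and 3 rose (71.4% called), all by less than 1 log2. After median-of-ratios scaling 8 fell and 1 rose, and after quantile normalization 5 fell and 3 rose. Genes called in TPM included PORA, a seedling protochlorophyllide reductase below 1.4 TPM, at 0.75 ± 0.174, and CAO (chlorophyllide a oxygenase) at -0.32 ± 0.06. CHLP (geranylgeranyl reductase) was at 0.31 ± 0.077, a call lost after median-of-ratios scaling (0.20, adjusted p = 0.159).

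Heat shock genes rose in part. HSP70 was at 2.42, 2.01 and 2.02 TPM at 16 °C and at 7.51, 7.12 and 6.92 TPM at 22 °C, a rise of 1.38 ± 0.16 (limma adjusted p = 6.67e-07), and at 52.5 ± 5.93 (SD) TPM at 29 °C. HSP90.1, a stress-induced chaperone, was at 1.41, 1.2 and 1.43 TPM and then at 4.59, 5.28 and 4.21 TPM (1.28 ± 0.186, adjusted p = 1.25e-05). HSFA3, a heat shock transcription factor, went from 0.85 to 3.18 TPM (1.19 ± 0.125, adjusted p = 1.68e-07), and MBF1C, a heat-induced coactivator, from 3.89 to 8.76 TPM (0.99 ± 0.112, adjusted p = 4.88e-07). Of 25 tested, 10 rose (40.0%, against 26.5% of all tested genes), none fell and 15 were not called. The 10 tested genes of small heat shock proteins, from HSP15.7 to HSP23.6, were all among those not called. The list was chosen with earlier results known. The 184 tested genes annotated as responding to heat had 48 rises (26.1%), 28 falls (15.2%) and a median of 0.02. The constitutive HSC70-1 rose from 847 to 930.4 TPM at 16 °C to 1223 to 1318 TPM at 22 °C (0.52 ± 0.07, adjusted p = 4.69e-06). Chaperones of the endoplasmic reticulum did not join: of 11 tested, none rose and 3 fell, CRT2, BIP2 and PDIL1-1, by 0.31 to 0.38 on the log2 scale, against 6 falls after median-of-ratios scaling and 5 after quantile normalization. The call of BIP2 was lost without 16 °C replicate 1 or 2 or 22 °C replicate 1 or 3 (adjusted p 0.0582 to 0.0665), and that of PDIL1-1 without 16 °C replicate 1 or 22 °C replicate 2 (adjusted p = 0.0588 and 0.0553).

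The histone variant H2A.Z is evicted from warm-responsive genes in Arabidopsis, and SWR1 is the complex that places it. Of 7 genes of both, 4 rose (57.1%). They were the H2A.Z genes HTA9 (157 to 233 TPM, 0.57 ± 0.077, limma adjusted p = 4.79e-06) and HTA11, and the SWR1 subunit genes ARP6 and SWC6 (0.39 ± 0.078 and 0.47 ± 0.122). The call of HTA11 (0.23, adjusted p = 0.0226) was lost after median-of-ratios scaling (0.13, adjusted p = 0.306), after quantile normalization (0.13, adjusted p = 0.261) and without 16 °C replicate 2 or 3 or 22 °C replicate 2 or 3 (adjusted p 0.0539 to 0.0782), and 3 genes rose and 2 fell under either scaling. PIE1, the ATPase of SWR1, fell by 0.26 (adjusted p = 0.0462), and this call was lost without any 1 of 5 libraries, every one except 22 °C replicate 1 (adjusted p 0.0814 to 0.141).

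The jasmonate, abscisic acid, salicylic acid and touch and wound lists were called less often than all tested genes, of which 38.2% were called. Of 19 jasmonate genes 3 rose and 2 fell (26.3% called), the latter being AOC2 and LOX2, enzymes of jasmonate synthesis. Among the risers LOX3 (0.32, limma adjusted p = 0.0156) lost its call in a fit of the groups compared alone and without 16 °C replicate 1 or 22 °C replicate 3 (adjusted p 0.0517 to 0.0853). AOC2 was at 104, 121 and 129 TPM at 16 °C and at 20.1, 22.7 and 15.8 TPM at 22 °C, a fall of 2.55 (SE 0.242, limma adjusted p = 3.86e-08), while its tandem relatives AOC1 and AOC3 were not called. LOX2 fell from 44.3 to 23.5 TPM (-0.91 ± 0.199, adjusted p = 0.00106). Of 17 abscisic acid genes 3 rose and 2 fell (29.4% called, against 38.2% of all tested genes), and 3 rose and 4 fell under either other scaling. The largest rise was that of the dehydrin gene RAB18, from 3.46 to 8.31 TPM (1.09 ± 0.291, adjusted p = 0.0052). Of 12 tested salicylic acid genes 2 rose and 1 fell. The fall, of the immune receptor gene SNC1, was of 0.14 on the log2 scale (adjusted p = 0.0484) and was lost without any 1 library (adjusted p 0.0538 to 0.19), and the rise of NPR1, the salicylic acid receptor gene, by 0.30 (adjusted p = 0.00625) was lost without 22 °C replicate 1 (0.22, adjusted p = 0.0531). WRKY70, a defence transcription factor, was at 2.43, 1.67 and 1.70 TPM and then at 6.94, 3.61 and 4.04 TPM (0.97 ± 0.185, adjusted p = 2.77e-04). PR1, PR2 and 6 others of this list did not pass the filter. Of 15 genes of rapid touch and wound responses 3 rose and 1 fell (26.7% called). ERF104 went from 5.12 to 12.9 TPM (1.17 ± 0.108, adjusted p = 2.82e-08), TCH3 from 70.4 to 151 TPM and ERF6 from 2.76 to 6.16 TPM, whereas ZAT12 went from 14.4 to 6.03 TPM.

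Iron genes and root markers varied among the 22 °C replicates. Of 22 iron genes 10 fell (45.5%) and 1 rose (4.55%), with a median of -0.46. The storage protein genes FER3 and FER4 were tight: FER3 was at 182, 202 and 173 TPM at 16 °C and at 70.8, 83.2 and 72.9 TPM at 22 °C (-1.28 ± 0.113, limma adjusted p = 1.36e-08), and FER4 fell by 0.75 (adjusted p = 2.28e-07). IRT1, the root iron transporter, was at 72.0, 70.9 and 99.3 TPM and then at 200.1, 48.2 and 116 TPM, and was not called (adjusted p = 0.653). The transcription factor genes BHLH38 and BHLH100 fell by 1.11 and 1.3 on the log2 scale. Without 22 °C replicate 2, the lowest library, they were at -0.65 (adjusted p = 0.161) and -0.76 (adjusted p = 0.18), and without 16 °C replicate 3 at -1.02 (adjusted p = 0.0658) and -1.03 (adjusted p = 0.111). AT1G47400 and AT1G47395 fell by 1.17 and 1.07. FRD3, a citrate exporter that loads iron into the xylem, was the sole riser, at 4.61, 4.58 and 4.53 TPM and then at 12.7, 5.99 and 7.27 TPM (0.73 ± 0.212, adjusted p = 0.00928), and its call was lost without 22 °C replicate 1, the high library (0.45, adjusted p = 0.0927).

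Root transcripts moved beside these values. Averaged as log2(TPM + 1), 24 root markers gave 3.38 to 3.40 at 16 °C and 3.28, 2.82 and 2.98 in the 22 °C replicates, none of the markers being at 0, whereas their summed TPM was 1978 to 2245 at 16 °C and 2469 to 3336 at 22 °C. Of the 24, 7 fell (29.2%) and 2 rose (8.33%). After median-of-ratios scaling 10 fell and none rose, and after quantile normalization 10 fell and 1 rose. The root hair genes PRP1 and PRP3 fell by 1.74 and 1.29 on the log2 scale. The call of PRP3 was lost without 16 °C replicate 1 or 2 or 22 °C replicate 2 or 3 (-1.15 to -1.28, adjusted p 0.0507 to 0.0715). The thalianol pathway genes THAS and THAD fell by 1.3 and 1.54 on the log2 scale, and the abundant root glucosidase gene PYK10 rose by 0.47 ± 0.169 (adjusted p = 0.0333). The call of PYK10 was lost after median-of-ratios scaling (0.36, adjusted p = 0.0656) and without 16 °C replicate 1 or 2 or 22 °C replicate 1 or 3 (adjusted p 0.0543 to 0.151). The tip regulators PLT1, PLT2 and WOX5, the vascular gene PHO1 and the Casparian strip genes CASP1 and CASP2 were not called. The share of root in a seedling was not measured, and its part in the iron result was not tested. The root falls numbered 4 without 16 °C replicate 1, 16 °C replicate 2 or 22 °C replicate 2, and the iron falls 7 to 12 over the 6 sets without 1 library.

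Seed markers and most flower organ markers were near 0, and stomatal lineage markers were present. Of 6 flower organ markers only SEP3 passed the filter, and it rose, from 0.77, 0.38 and 0.16 TPM to 4.08, 3.83 and 4.07 TPM (1.82 ± 0.172, limma adjusted p = 3.68e-08), while AP1, AP3, PI, AG and SEP1 were at 0.53 TPM or less in every library. The 12 seed markers summed to 1.02 to 2.47 TPM per library. Stomatal lineage markers, all 9 at 1 TPM or more in every library, summed to 67.1 to 72.1 TPM at 16 °C and to 79.3 to 93.6 TPM at 22 °C. Of these, TMM, a receptor protein of stomatal patterning, rose from 8.31 to 14.3 TPM (0.71 ± 0.123, adjusted p = 9.07e-05). SPCH, the factor that starts the lineage, rose by 0.35 (adjusted p = 0.0133), a call lost without 16 °C replicate 2 (0.27, adjusted p = 0.0882) or 22 °C replicate 3 (0.29, adjusted p = 0.0704) and after either other scaling (adjusted p = 0.0591 and 0.0863). Of 12 cell cycle genes 2 rose (16.7%, below the 26.5% of all tested genes), against 1 rise and 2 falls after either other scaling. They were CYCD3;1, a G1 cyclin gene, by 0.75 ± 0.099 (adjusted p = 3.46e-06), and KNOLLE by 0.27 ± 0.104 (adjusted p = 0.0487), the latter lost without any 1 of 5 libraries, every one except 22 °C replicate 1 (adjusted p 0.0831 to 0.174), and after either other scaling.

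The largest single rises included genes outside the lists. AT2G32870, a TRAF-like family gene, was at 1.65, 1.54 and 1.39 TPM at 16 °C and at 21.9, 20.7 and 24.4 TPM at 22 °C (3.21 ± 0.137, limma adjusted p = 4.81e-13). AT2G05540, of a glycine-rich protein family, was at 35.2, 25.8 and 29.0 TPM and then at 233, 234 and 258 TPM (2.98 ± 0.135, adjusted p = 8.61e-13). Both were tight within a temperature and stayed high at 29 °C, at 37.7 and 387 TPM. TPX2 (AT1G65970), thioredoxin-dependent peroxidase 2, went from 7.27 ± 1.77 (SD) to 70.7 ± 24.2 TPM (3.09 ± 0.203, adjusted p = 1.91e-10). Other rises were more scattered. AACT1, outside the flavonoid list, was at 0.31, 0.48 and 3.34 TPM and then at 27.9, 17.5 and 10.9 TPM. The deposited annotation describes AACT1 as an anthocyanin acyltransferase, a function not checked here. UGT74E2, a glycosyltransferase gene, was at 5.53, 12.1 and 26.5 TPM and then at 98.2, 73.9 and 49.8 TPM. Without 16 °C replicate 1 the call of UGT74E2 was lost (1.93, adjusted p = 0.06). The others were BGLU11, AT1G67865, AT1G10585, AT1G79170, SUFE2, AT1G22890, DIN1 and the low or noncoding loci AT4G37095, U4.2 and U2.14. AT4G37095 and U4.2 were listed at 0 in all 16 °C libraries. The call of AT4G37095 was lost without 16 °C replicate 1 or 2 or 22 °C replicate 1 (adjusted p 0.0506 to 0.0851), and that of U2.14 without 16 °C replicate 1 (adjusted p = 0.0551).

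The largest fall was at MSTRG.4797, an assembled locus with no gene name in the deposited table, at 26.7, 39.8 and 40.9 TPM at 16 °C and at 0.15, 0.07 and 0.31 TPM at 22 °C (-4.95 ± 0.203, limma adjusted p = 2.9e-13). ELIP1, COR15A, ELIP2, TT19, AOC2 and KIN2, described above, were among the 15 largest. MES18, a methyl esterase gene, fell from 48.0, 48.4 and 52.6 TPM to 5.40, 7.28 and 7.20 TPM (-2.74 ± 0.145, adjusted p = 7.54e-12). AT5G14650, a pectin lyase-like gene, fell from 11.4 to 0.91 TPM and AT3G55580, of the RCC1 family, from 18.8 to 2.12 TPM, both with no overlap. AT1G23410, a ubiquitin and S27a fusion gene with close paralogues, was at 9.99, 2.28 and 4.35 TPM and was listed at 0 at 22 °C. The remaining 4 were the noncoding RNAs AT3G09905, SNOR105, AT1G06463 and AT2G09250. The call of SNOR105 was lost without any 1 of 5 libraries, every one except 22 °C replicate 2 (adjusted p 0.0515 to 0.159), and that of AT1G06463 without 22 °C replicate 3 (adjusted p = 0.0647).

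The same step from 16 to 22 °C was set against the steps of both ELF3 lines, which share the listed hours. The S364P line had 11815 called genes (55.2%) and the insertion line 10338 (48.3%). The difference between responses, tested as an interaction in the same limma fit, was called for 3013 genes (14.1%) against the S364P line and for 2101 (9.82%) against the insertion line. Of the 8172 genes called in wild type, 1714 (21.0%) and 1251 (15.3%) had a response that differed, and of the 622 with at least 1 log2, 186 (29.9%) and 120 (19.3%). Both differences use the wild-type libraries, so they are not separate evidence.

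The clock pair responded differently among genotypes. LHY rose by 0.56 ± 0.112 in wild type but fell in the S364P line, from 224 to 242 TPM to 81.0 to 90.3 TPM (-1.40 ± 0.112), and in the insertion line, from 15.1 to 21.1 TPM to 9.61 to 12.1 TPM (-0.69 ± 0.112). The wild-type response was greater by 1.95 ± 0.159 (limma adjusted p = 2.25e-08) and by 1.25 ± 0.159 (adjusted p = 2.15e-05). CCA1 went from 285 to 94.5 TPM in the S364P line, against 270 to 224 TPM in wild type, a difference between responses of 1.31 ± 0.139 (adjusted p = 1.05e-06). At 16 °C wild type and the S364P line thus had CCA1 libraries in overlapping ranges (258 to 282 and 268 to 306 TPM), and at 22 °C the ranges were apart. LUX rose in all 3 genotypes, by 0.57 in wild type, by 2.17 in the S364P line and by 1.38 in the insertion line, and ELF3, which fell in wild type, rose by 0.60 ± 0.078 in the S364P line.

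PIF4 rose in all 3 genotypes, from very different starting levels. Its mean went from 0.787 to 4.03 TPM in wild type, from 14.3 to 67.0 TPM in the S364P line and from 41.1 to 80.4 TPM in the insertion line, which as ratios of mean TPM are 5.12, 4.70 and 1.96. On the log2(TPM + 1) scale the wild-type response was smaller than that of the S364P line by 0.66 (SE 0.125, limma adjusted p = 8.67e-04) and greater than that of the insertion line by 0.53 ± 0.125 (adjusted p = 0.00782), and the pseudocount weighs most on the low wild-type values. With a pseudocount of 0.1 the difference from the S364P line was -0.01 (adjusted p = 0.986), so its direction rests on the pseudocount, and with a pseudocount of 5 the difference from the insertion line turned to -0.26 (adjusted p = 0.178). COR15A changed by -3.92 in wild type, by -2.82 in the S364P line and by -0.97 in the insertion line. Its means went from 27.9 to 0.89, from 8.25 to 0.31 and from 7.10 to 3.30 TPM, ratios of 16 over 22 °C of 31.3, 26.6 and 2.15. The difference from the insertion line was called under every alternative tried. That from the S364P line (-1.11, adjusted p = 0.0257) was lost with a pseudocount of 0.1 (-0.46, adjusted p = 0.573) and without wild-type 16 °C replicate 2 or 3, wild-type 22 °C replicate 2, S364P 16 °C replicate 3 or S364P 22 °C replicate 1 (adjusted p 0.0539 to 0.0685). CHS fell less far in wild type (-1.67) than in these lines (-3.26 and -2.38), and both differences were called (adjusted p = 1.04e-05 and 0.0257). The second call was lost with a pseudocount of 5 (0.43, adjusted p = 0.155), in a fit of the groups compared alone (adjusted p = 0.102) and without wild-type 16 °C replicate 1, wild-type 22 °C replicate 2, insertion line 16 °C replicate 2 or insertion line 22 °C replicate 1 (adjusted p 0.0552 to 0.0803). For HSP70, PIF5, FT and ELF4 neither difference was called (adjusted p 0.0509 to 0.933), although that of PIF5 from the S364P line (0.27) was called under 6 of 21 alternatives.

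**Figure D5:**
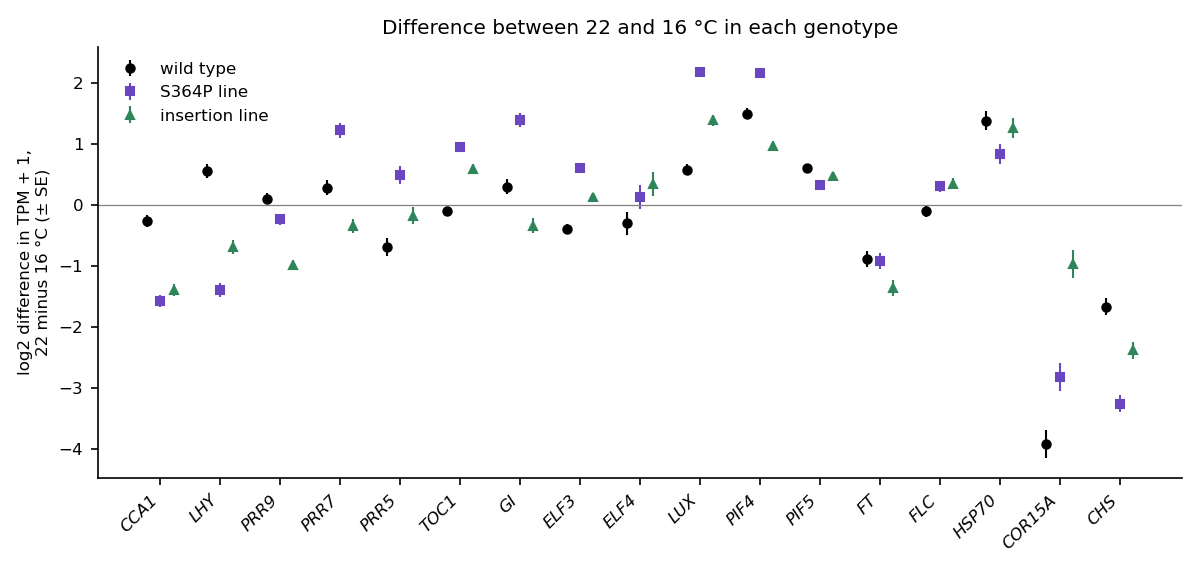
The y axis is the log2 difference of TPM + 1 between 22 and 16 °C for 17 genes in wild type (circles), the S364P line (squares) and the insertion line (triangles), 3 libraries per group, with SE bars. LHY lies above 0 in wild type (0.56) and below 0 in the S364P line (-1.40) and the insertion line (-0.69), and COR15A lies lowest in wild type (-3.92).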

How the data were processed

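The authors deposited TPM values for 33039 genes in 27 libraries, per the file headers; the sequencer was an Illumina NovaSeq, per the labels' protocols. No source used here gives the aligner, quantifier or genome build, and neither coordinates nor promoters were analysed here. Libraries were matched to groups by label. Values were taken as log2(TPM + 1). A gene was tested where 3 or more libraries reached 1 TPM, which left 21396. All 9 groups entered a single limma fit (3.58.1, under R 4.3.3) that let the variance follow the mean (18 residual and 3.17 prior degrees of freedom). Contrasts were two-sided with Benjamini-Hochberg adjustment and called at 0.05. Data for this comparison were simulated over 21396 genes with independent normal noise. In them 200 genes, all above about 5 TPM at 16 °C, were shifted. The fit found 66% of the genes shifted by 0.5 log2 and 90% of those shifted by 1 log2, and 7 of its 163 calls were false. These shares do not carry over to genes at lower levels or to data in which 38.2% of genes were called.

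The libraries and the 29 gene lists were chosen with earlier results of these data known. Named genes were 17 core genes, in each list the called members that differed most (4 at most), and the 15 largest rises and 15 largest falls at a mean of at least 5 TPM without overlap. Other list members were named after their values were seen. Lists were not tested as sets. Of 526 list genes, 45 did not pass the filter. Of the gene IDs, 32547 matched TAIR10.1 locus tags. TAIR10.1 served for names alone, for genes without a deposited name. Tables and plots used Python 3.11.15, pandas 2.3.3, NumPy 2.4.6 and matplotlib 3.10.9. Alternatives were scaling by median of ratios, quantile normalization, pseudocounts of 0.1 or 5, filtering at 5 TPM or not at all, dropping 285 organelle genes, fitting the compared groups alone, adding a replicate block, requiring 1 log2, and omitting each library in turn.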

Additional observations from a re-analysis of the deposited data

Results flagged for a closer look

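The response of 13 of the 17 core genes differed between wild type and at least 1 of the ELF3 lines, as an interaction in the limma fit at an adjusted p under 0.05; values are the wild-type response minus that of the other line, on the log2 scale, with the S364P line first where both are given. The wild-type libraries enter both differences. Among the dawn and day genes CCA1 differed by 1.31 and 1.14 and LHY by 1.95 and 1.25. PRR9 differed by 1.09 against the insertion line alone, and PRR5 by -1.18 against the S364P line alone. PRR7 differed by -0.94 and 0.63, so that the wild-type response lay between those of the lines. The second call of PRR7 was lost under 4 of 21 alternatives. Wild-type means at 16 and 22 °C were 0.667 and 0.787 TPM for PRR9 and 0.967 and 1.41 TPM for PRR7. Both lines were higher, and the pseudocount weighs most on such low values. For PRR7 the ratio of mean TPM was 1.46 in wild type, 2.4 in the S364P line and 0.777 in the insertion line. GI differed by -1.09 and 0.64, but wild-type GI was below 1 TPM: with a pseudocount of 0.1 the difference from the S364P line was -0.48 (adjusted p = 0.307), and the ratio of mean TPM was 4.08 in wild type, 3.19 in the S364P line and 0.774 in the insertion line. The GI difference from the insertion line lost its call under 6 of 21 alternatives. TOC1 differed by -1.05 and -0.70.

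Of the evening complex genes ELF3 differed by -0.99 and -0.52 and LUX by -1.60 and -0.81. The second call of ELF3 was lost under 1 of 21 alternatives. Among output genes PIF4 differed by -0.66 and 0.53. With a pseudocount of 0.1 the first was -0.01 (adjusted p = 0.986), and the ratio of mean TPM was 5.12 in wild type against 4.70 in the S364P line, so this direction rests on the pseudocount. FLC differed by -0.41 and -0.45, calls lost under 12 and 7 of 21 alternatives. COR15A differed by -1.11 and -2.95, the first of which was -0.46 (adjusted p = 0.573) with a pseudocount of 0.1. CHS differed by 1.58 and 0.71, the second call being lost under 6 of 21 alternatives. No cause was tested.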

How the results depend on the processing

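Requiring 1 log2 left 622 genes (391 higher, 231 lower) in wild type, 560 (304 and 256) for the difference from the S364P line and 282 (162 and 120) for that from the insertion line. Other scalings raised the falls in wild type to 3962 (median of ratios) and 3950 (quantile), both of which centre the median by construction. A fit of the groups compared alone called 4439 genes (2317 higher, 2122 lower) for the S364P difference, against 3013 as reported. For the insertion difference it called 1401 (685 higher, 716 lower), against 2101. Without 1 library, wild type had 6727 to 7510 calls (4535 to 5493 higher, 1928 to 2237 lower), the S364P difference 2306 to 2715 (926 to 1296, 1248 to 1589) and the insertion difference 1618 to 2284 (685 to 1035, 839 to 1249). ELF4 ranged from -0.482 (without 22 °C replicate 1) to 0.033 (without 22 °C replicate 2, adjusted p = 0.89).

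Of 132 called named genes, 109 stayed called in the same direction under every alternative in which they were tested. The filter at 5 TPM left some of these 109 untested. Of 24 differences of response called in core genes, 14 stayed called in the same direction under every alternative. The difference of PIF4 from the insertion line turned to -0.255 with a pseudocount of 5. Both counts leave out the alternative that required a minimum size of difference. With the replicate block, 8280 (5733 higher, 2547 lower), 3140 and 2177 genes were called. Same-numbered wild-type replicates correlated in their deviations at -0.067, 0.026 and -0.022, so no shared deviation was seen. With 3 libraries per group these values cannot show whether same-numbered samples were grown or handled together. No seed marker was left to give a median with the filter at 5 TPM. Depth is unknown, and values near 0 TPM cannot be told from 0.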

Other observations

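Annotated process groups were counted beside the lists, and the balance of some rested on the scaling. Of 103 tested ribosome biogenesis genes, 48 (46.6%) fell and 9 (8.74%) rose, against 11.7% and 26.5% of all tested genes, with a median of -0.21, and 71 and 63 fell after median-of-ratios scaling and quantile normalization. Of 179 rRNA processing genes 72 fell and 15 rose (median -0.17), and of 543 translation genes 186 fell and 64 rose (median -0.10). Of 54 autophagy genes, which serve the recycling of cell contents, 23 (42.6%) rose and 1 fell (median 0.22), and 16 and 17 rose under the other scalings.

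Of 167 genes of mRNA splicing 60 (35.9%) rose and 17 fell in TPM, against 43 and 27 after median-of-ratios scaling. Of 268 vesicle transport genes 76 (28.4%, near the 26.5% of all tested genes) rose and 12 (4.48%) fell in TPM, against 49 and 34. The annotated response to cold, with 339 tested genes, had 79 rises and 89 falls in TPM (median 0.01), 49 and 115 after median-of-ratios scaling (median -0.09) and 62 and 101 after quantile normalization (median -0.08).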
